A study of Mus musculus with 4 samples.

Results

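The glucocorticoid-responsive genes of the mouse hypothalamus were followed in WD-fed WT and *Tas1r3*-/- mice, together with the receptors that read the hormone. The group has 10 genes out of 16335 genes with counts, namely the targets *Zbtb16*, *Cdkn1a*, *Fkbp5*, *Tsc22d3*, *Sgk1*, *Mt1*, *Mt2* and *Pdk4*, and the receptor genes *Nr3c1* and *Nr3c2*. *Zbtb16* and *Cdkn1a* were chosen by their higher counts in the *Tas1r3*-/- WD libraries, so their values are given as a description with no test. The other 8 were taken as known targets and receptors, but with earlier results of these data known. Their counts beside the shares of all genes are therefore a description too. Counts came from 4 RNA sequencing libraries, 2 for each genotype, from male C57BL/6 mice. All of them received WD, that is, a diet with 60% fat and a 30% sucrose solution to drink, over 12 weeks, and no library of ND-fed mice was analysed here. The WT mice were littermates matched for age and weight (23 to 25 g) when they were housed. The paper reports that *Tas1r3*-/- mice gained less weight on WD than WT mice, and weights at sampling were not analysed here. The *Tas1r3*-/- mice carried a conventional knockout, so the gene was missing in every tissue and not in the hypothalamus alone. The gene encodes TAS1R3, a subunit of the sweet and umami taste receptors. Mice were killed with an injection of 20% urethane before the tissue was taken. The 2 libraries a group analysed here are fewer than the mice a group named in the methods, and the labels do not say whether a library is 1 mouse, so p-values measure the spread between libraries, which may in part be technical.

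Glucocorticoids, corticosterone in mice, are released by the adrenal cortex under the command of the hypothalamus and pituitary (HPA axis). They bind the glucocorticoid receptor (*Nr3c1*) and, with higher affinity, the mineralocorticoid receptor (*Nr3c2*), which move to the nucleus and act on glucocorticoid response elements in DNA. *Fkbp5* and *Tsc22d3* are both targets. FKBP51 curbs the response, since it lowers the affinity of the receptor for its hormone. GILZ, the product of *Tsc22d3*, restrains inflammatory transcription. In the hypothalamus the receptors take part in the feedback that ends a stress response, and the hormone follows a daily rhythm.

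The estimated counts of a library summed to 5917470 (replicate 1) and 6177210 (replicate 2) for WT WD, and to 6273772 and 5874782 for *Tas1r3*-/- WD. Levels are given as CPM, that is, counts scaled to a common library total by the TMM method of edgeR, in which a count of 0 allows up to 3 counts, or 0.481 to 0.525 CPM depending on the library. *Tas1r3* itself was at 6.00 and 4.44 CPM in WT WD, and at 1.12 and 1.23 CPM in *Tas1r3*-/- WD, in the order of the replicates.

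The libraries differed in their tissue markers. Markers of hypothalamic neurons (19 genes) summed to 2273 CPM in WT WD replicate 1, 1642 and 1590 CPM in *Tas1r3*-/- WD replicates 1 and 2, and 81.2 CPM in WT WD replicate 2. *Pmch*, the most abundant of them, which encodes the lateral hypothalamic peptide melanin-concentrating hormone, was at 6.65 CPM in WT WD replicate 2 against 373 CPM or more elsewhere, and *Nr5a1*, a marker of the ventromedial nucleus, had no count there. The 12 thalamus markers summed to 4149 CPM in WT WD replicate 2 and to between 818 and 1124 CPM in the other libraries, and its markers of choroid plexus and red blood cells were also the highest, at 1141 and 1957 CPM. *Tas1r3*-/- WD replicate 1 stood out for anterior pituitary genes, which summed to 1462 CPM there and to 10.3 to 19.6 CPM in the other libraries, and *Gh*, the growth hormone gene, was at 760 CPM there and at 12.2 CPM or less elsewhere. WT WD replicate 2 therefore goes against its tissue label by its markers, and values without it are given for each of the 10 genes, for the median of each list, and for other genes where stated. Over all genes tested, the root mean square log2 difference was 0.759 between the WT WD libraries and 0.373 between the *Tas1r3*-/- WD libraries. From *Tas1r3*-/- WD replicates 1 and 2, WT WD replicate 1 differed by 0.411 and 0.417, and WT WD replicate 2 by 0.748 and 0.719. In bulk tissue, fewer cells of a type and less RNA in each cell cannot be told apart.

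**Figure D1:**
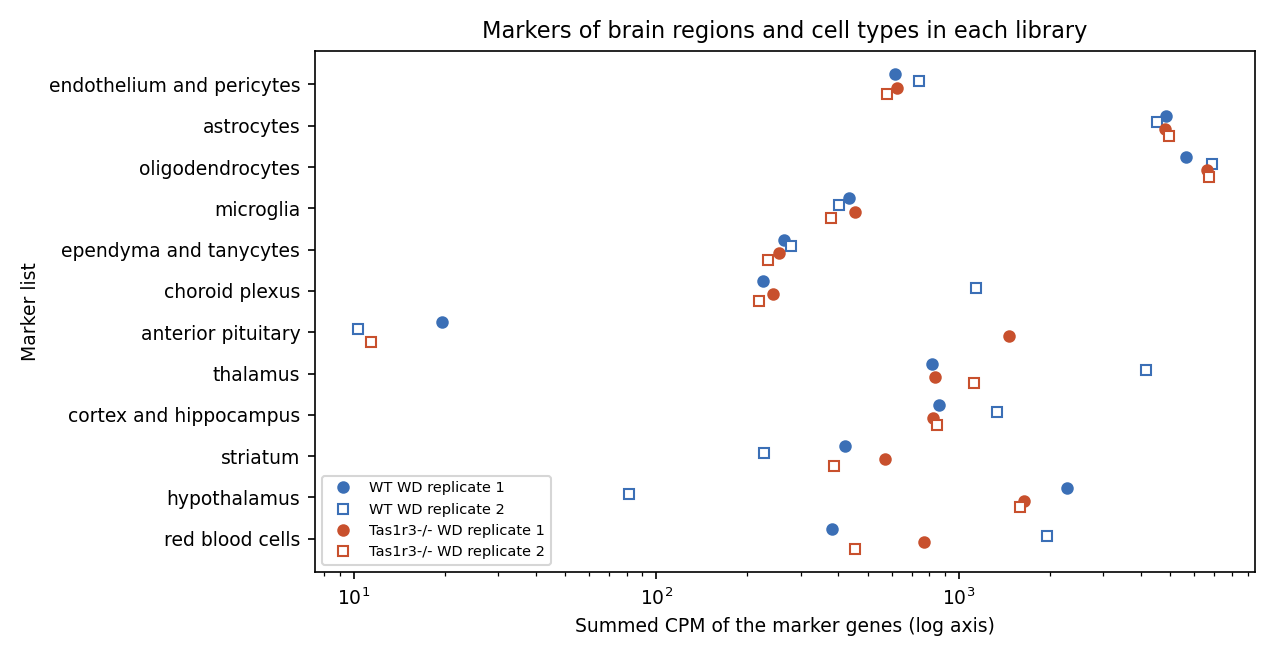
Summed CPM (log axis) of 12 marker lists for brain regions and cell types, with 1 point for each library. WT WD replicate 2 (open blue square) lies far below the other libraries for hypothalamus (81.2 CPM) and far above them for thalamus (4149 CPM), and *Tas1r3*-/- WD replicate 1 (filled red circle) lies above them for anterior pituitary (1462 CPM).

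All 10 genes had enough counts to be tested among 14340 genes. In 7 of them the knockout libraries were both higher than either WT WD library, namely *Zbtb16*, *Cdkn1a*, *Fkbp5*, *Tsc22d3*, *Sgk1*, *Pdk4* and *Nr3c2*. That pattern was seen in 20.6% of all genes tested, and the opposite one in 19%, which held for 0 of the 10. The groups overlapped for *Mt1*, *Mt2* and *Nr3c1*. Leaving aside *Zbtb16* and *Cdkn1a*, which were picked on this difference, the count was 5 of 8. Over the same 8 genes it was 6 without WT WD replicate 2, against 37.6% of all genes, and 5 without *Tas1r3*-/- WD replicate 1, against 29.6%. Setting WT WD replicate 2 alone against the knockout libraries left 5 of the 8 higher, against 41.7% of all genes, and made 3 lower, *Mt1*, *Mt2* and *Nr3c1*, against 40.6%. Without WT WD replicate 2, 0 of the 8 were lower, against 37.5%. None of the 10 was called by edgeR's quasi-likelihood test (adjusted p under 0.05, at least 1.5-fold), where the background was 0% as well. At an unadjusted p under 0.05, where 5.48% of all genes fell, 3 of the 8 were found, namely *Fkbp5*, *Tsc22d3* and *Pdk4*. DESeq2, the tool named in the methods, called 9 genes (0.0652% of those it gave an adjusted p), and 0 of them were among the 8.

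**Figure D2:**
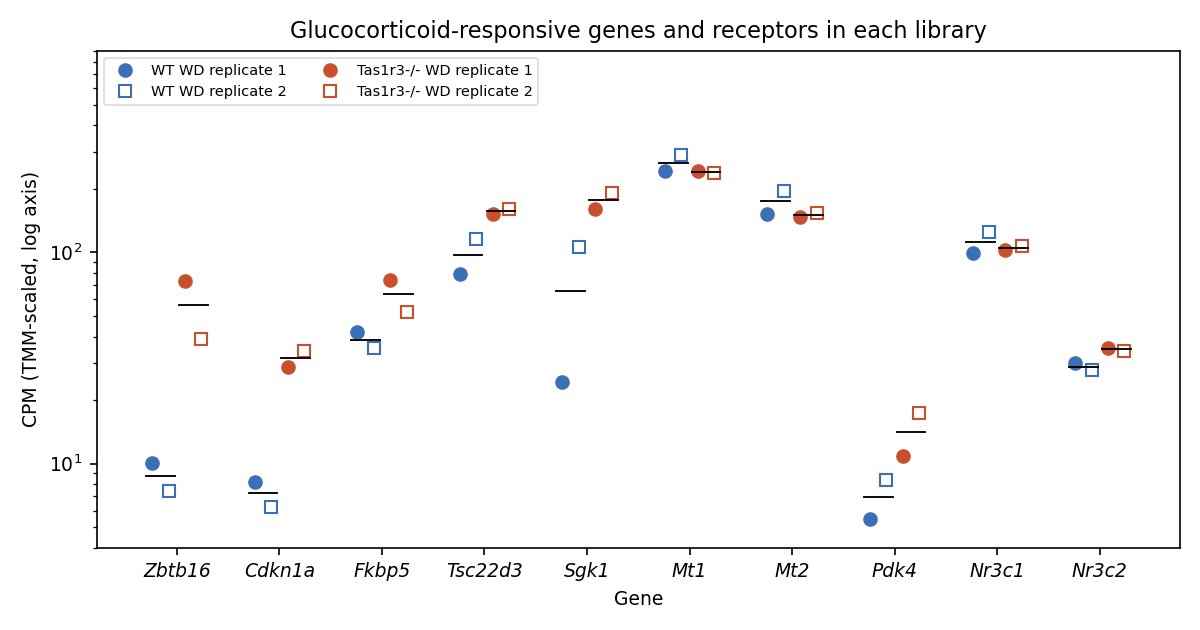
CPM (log axis) of the 10 genes in each library, with black lines for the mean of each group (n = 2). The groups do not overlap for 7 genes, *Sgk1* spans 24.4 to 107 CPM within WT WD, and *Mt1*, *Mt2* and *Nr3c1* lie close together in both genotypes.

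*Zbtb16* (ENSMUSG00000066687, chromosome 9 of GRCm39 from 48563141 to 48748664, minus strand) encodes PLZF, a zinc finger repressor of transcription that glucocorticoids induce in many tissues. It was at 10.1 and 7.40 CPM in WT WD replicates 1 and 2, and at 73.5 and 39.0 CPM in *Tas1r3*-/- WD replicates 1 and 2. In estimated counts these are 59.0 and 45.0 against 458 and 223. The lower *Tas1r3*-/- WD library was 3.86 times the higher WT WD library, and the *Tas1r3*-/- WD libraries differed from each other by 1.88 times, more than the 1.37 times between the WT WD libraries. The means were 8.76 ± 1.92 CPM (SD, n = 2) for WT WD, and 56.3 ± 24.3 CPM (SD, n = 2) for *Tas1r3*-/- WD, or 2.68 ± 0.38 (SE) as log2 fold change (n = 2 a group). Both RefSeq transcripts of the gene had this pattern. NM_001364543 held 77.1% and 82.4% of its counts for WT WD, against 69.0% and 77.3% for *Tas1r3*-/- WD, and NM_001033324 held the rest. Leaving out WT WD replicate 2 gave a log2 fold change of 2.48.

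*Cdkn1a* (ENSMUSG00000023067, chromosome 17, 29309936 to 29319701) encodes p21, an inhibitor of cyclin-dependent kinases that answers to p53 as well as to glucocorticoids. Its levels were 8.23 and 6.25 CPM for the WT WD libraries, with 28.7 and 34.3 CPM for *Tas1r3*-/- WD. The lowest *Tas1r3*-/- WD value was 3.49 times the highest WT WD value. Between the genotypes, the fitted log2 fold change was 2.12 ± 0.23 (SE, n = 2 a group), and each genotype's libraries were within 1.32 times of each other. NM_007669 carried most of the counts, at 8.15 and 4.26 CPM for the WT WD libraries, with 26.7 and 33.9 CPM for *Tas1r3*-/- WD, whereas NM_001111099 stayed under 2 CPM in every library. The log2 fold change of the gene was 1.93 with WT WD replicate 2 left out.

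*Fkbp5* (ENSMUSG00000024222, chromosome 17, 28618058 to 28737521, minus strand) was at 41.8 and 35.4 CPM in WT WD and at 74.3 and 52.3 CPM in *Tas1r3*-/- WD. All *Tas1r3*-/- WD values were higher, and the replicate with most *Zbtb16* also had most *Fkbp5*. The difference was 1.64-fold, or 0.71 ± 0.22 (SE) as log2 fold change (n = 2 a group), with an edgeR adjusted p of 0.748 and an unadjusted p of 0.0231. Without *Tas1r3*-/- WD replicate 1, the library with pituitary transcripts, the log2 fold change was 0.44, and leaving out WT WD replicate 2 gave 0.60. The part of the pituitary transcripts in the *Zbtb16* and *Fkbp5* values of that library was not tested.

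*Tsc22d3* (ENSMUSG00000031431, chromosome X, 139440091 to 139501408, minus strand) was at 79.4 and 115 CPM in WT WD, and at 152 and 161 CPM in *Tas1r3*-/- WD. The *Tas1r3*-/- WD libraries were close to each other, within 1.06 times, and the WT WD libraries were spread by 1.45 times. Between the genotypes, the fitted log2 fold change was 0.68 ± 0.21 (SE, n = 2 a group, edgeR adjusted p = 0.748, unadjusted p = 0.0216). The gene has 3 RefSeq transcripts, and a difference between them was not tested. NM_010286 was at 17.0 and 29.7 CPM in WT WD and at 52.0 and 52.97 CPM in *Tas1r3*-/- WD, a log2 fold change of 1.16 ± 0.31 (SE). The noncoding transcript NR_122039, the most abundant, was at 60.7 and 81.2 CPM against 91.7 and 100.2 CPM, a log2 fold change of 0.43 ± 0.21 (SE). NM_001077364, the least abundant, was at 1.72 and 4.24 CPM against 8.09 and 7.78 CPM, a log2 fold change of 1.37 ± 0.59 (SE). The share of NM_010286 in the counts of the gene was 21.5% and 25.8% for WT WD, against 34.3% and 32.9% for *Tas1r3*-/- WD. In a test of all transcripts, edgeR's adjusted p was 0.866 for each of the 3.

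*Sgk1* (ENSMUSG00000019970, chromosome 10, 21758083 to 21875802) encodes a kinase that both corticosteroid receptors induce and that regulates ion channels and transporters. It had 24.4 CPM in WT WD replicate 1, 107 CPM in WT WD replicate 2, and 161 and 192 CPM in *Tas1r3*-/- WD replicates 1 and 2. WT WD replicate 1 was the low library, 4.38 times below the other WT WD library, while the *Tas1r3*-/- WD libraries were within 1.20 times of each other. Between the genotypes, the fitted log2 fold change was 1.43 ± 0.67 (SE, n = 2 a group, edgeR adjusted p = 0.748). It was 2.85 without WT WD replicate 2, the library with few hypothalamic markers, and 0.73 without WT WD replicate 1. Oligodendrocytes are rich in *Sgk1*, and the 14 oligodendrocyte markers summed to 5621 CPM in WT WD replicate 1 and to 6871, 6610 and 6690 CPM in the other libraries, in the order above. Of these markers *Mbp*, which encodes myelin basic protein, was the most abundant, at 2290 CPM in WT WD replicate 1 and 2689 CPM or more elsewhere. The part of the oligodendrocytes in the *Sgk1* value was not tested.

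Most of the spread of *Sgk1* was that of 1 of its 5 RefSeq transcripts. NM_011361 was at 10.8 and 85.7 CPM in WT WD and at 142 and 167 CPM in *Tas1r3*-/- WD, and its share of the gene's counts was 44.3% in WT WD replicate 1 and 80.4%, 88.2% and 86.9% in the other libraries. NM_001161845, which differs at its 5′ end, stayed between 9.67 and 12.3 CPM in all 4 libraries, with a log2 fold change of -0.0131 (edgeR adjusted p = 0.998 over all transcripts tested). Estimated counts divide reads between transcripts that share most of their exons, so these shares are less certain than the totals.

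**Figure D3:**
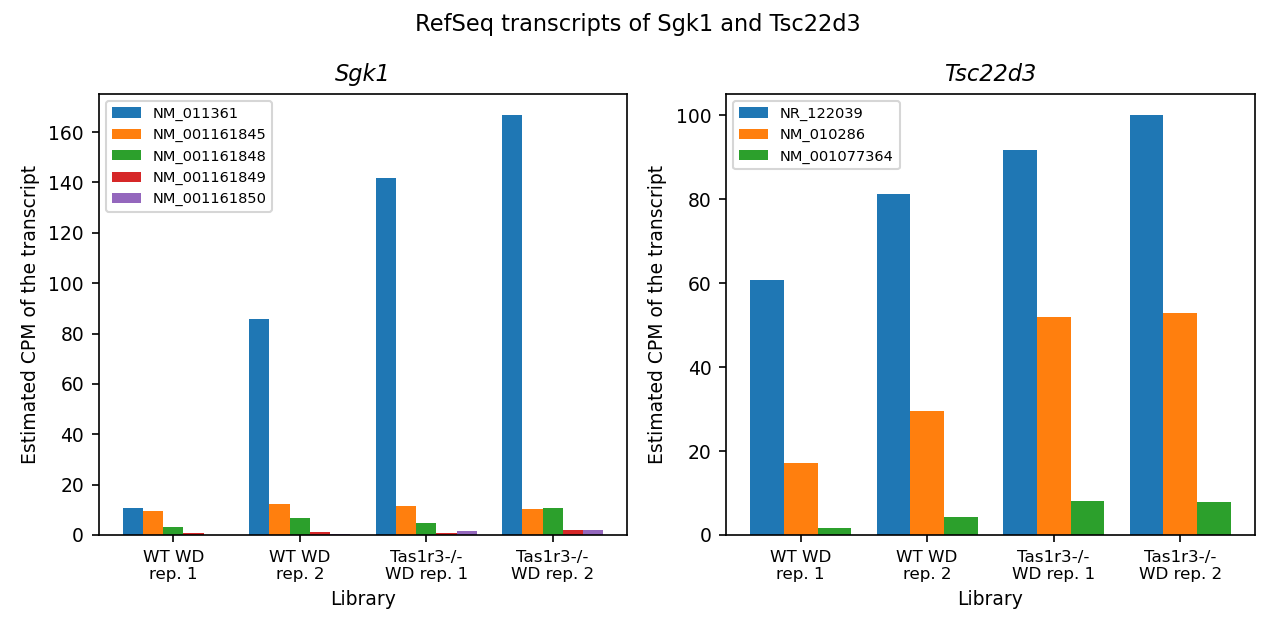
Estimated CPM of the RefSeq transcripts of *Sgk1* and *Tsc22d3* in each library, as bars from 0. NM_011361 of *Sgk1* goes from 10.8 CPM in WT WD replicate 1 to 167 CPM in *Tas1r3*-/- WD replicate 2, while NM_001161845 stays between 9.67 and 12.3 CPM.

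RefSeq lists 6 start sites for *Sgk1*, and their promoter windows (250 bases before to 50 after the start site, RefSeq on GRCm38.p6) were found again on GRCm39 by an exact match of all bases. They were searched for the glucocorticoid response element AGAACA, any 3 bases and then TGTTCT, whose letters read the same on both strands, by the number of its 12 fixed bases matched at the best place. One *Sgk1* window matched all 12, which 3 of 32851 windows of all genes did (0.00913%). A second matched 10, as did 1.84% of windows or more closely, and another matched 9. The window at the start site of most GENCODE transcripts, 11 of them within 50 bases, matched 8, which 57% of windows reach. The first and the last of these windows are shown up to the start site, on the plus strand of GRCm39, with the best match in capitals, at position -189 and -171 from the start site. Which RefSeq transcript begins at which window was not analysed here.

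*Sgk1*, all 12 bases matched, chr10:21869539-21869788: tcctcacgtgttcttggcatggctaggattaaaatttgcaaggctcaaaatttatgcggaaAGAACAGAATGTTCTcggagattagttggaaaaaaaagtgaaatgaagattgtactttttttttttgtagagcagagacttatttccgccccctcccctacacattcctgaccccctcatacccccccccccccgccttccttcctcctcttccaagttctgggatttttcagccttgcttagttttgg

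*Sgk1*, start site of 11 GENCODE transcripts, chr10:21870315-21870564: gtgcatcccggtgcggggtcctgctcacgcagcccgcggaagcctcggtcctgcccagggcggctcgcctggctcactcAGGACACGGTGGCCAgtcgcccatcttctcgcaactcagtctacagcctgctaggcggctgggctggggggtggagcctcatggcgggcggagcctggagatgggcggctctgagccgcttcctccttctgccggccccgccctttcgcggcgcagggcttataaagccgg

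RefSeq windows were given for 8 of the 10 genes, and not for *Zbtb16* and *Nr3c1*. *Fkbp5*, *Cdkn1a*, *Pdk4* and *Tsc22d3*, whose groups did not overlap, matched at most 8 of the 12 bases in their windows. One arm of the element, AGAACA or TGTTCT on the plus strand, was found in 1 of 3 *Tsc22d3* windows and in 3 of 6 *Sgk1* windows, and in 19% of all windows. It overlaps the full element by definition. The element recognised by CREB in full, TGAC followed directly by GTCA, was in none of the 16 windows of the 8 genes and in 1.79% of all windows. The window of *Fkbp5* is shown because this gene is the usual readout of the receptor, with its best match of 6 bases in capitals, on the minus strand. That is a poor match, since 94% of all windows match at least 7 bases. Sequence outside the windows was not searched.

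*Fkbp5*, chr17:28705124-28705373: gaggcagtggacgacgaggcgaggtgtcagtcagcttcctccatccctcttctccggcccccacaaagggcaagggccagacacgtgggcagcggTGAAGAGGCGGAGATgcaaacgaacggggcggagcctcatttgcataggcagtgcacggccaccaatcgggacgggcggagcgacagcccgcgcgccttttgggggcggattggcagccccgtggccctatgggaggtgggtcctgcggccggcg

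*Pdk4* (ENSMUSG00000019577, chromosome 6, 5483097 to 5496339, minus strand) encodes a kinase that shuts off pyruvate dehydrogenase and spares glucose in fasting. It was at 5.49 and 8.39 CPM in WT WD and at 10.9 and 17.3 CPM in *Tas1r3*-/- WD. The groups did not overlap, although they came close, with the lowest *Tas1r3*-/- WD library 1.30 times the highest WT WD library. Between the genotypes, the fitted log2 fold change was 1.02 ± 0.36 (SE, n = 2 a group, edgeR adjusted p = 0.748, unadjusted p = 0.0367). Leaving out *Tas1r3*-/- WD replicate 2 gave 0.64 and leaving out WT WD replicate 2 gave 1.35. The gene rested on 32.0 to 99.0 counts in a library.

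*Mt1* (ENSMUSG00000031765, chromosome 8, 94905710 to 94906955) and *Mt2* (ENSMUSG00000031762, chromosome 8, 94898819 to 94900207) encode metallothioneins, small proteins that bind zinc and copper, and are induced by metals as well as by glucocorticoids. *Mt1* was at 242 and 290.3 CPM in WT WD and at 243 and 237 CPM in *Tas1r3*-/- WD. *Mt2* was at 152 and 196 CPM in WT WD and at 147 and 154 CPM in *Tas1r3*-/- WD. For both, WT WD replicate 2 was the high library and the other 3 lay within a narrow range. The log2 fold changes were -0.15 ± 0.14 (SE; edgeR adjusted p = 0.786) for *Mt1* and -0.21 ± 0.16 (SE; edgeR adjusted p = 0.764) for *Mt2*. Without WT WD replicate 2 they were -0.0123 and -0.0178. These neighbouring genes are close copies, and estimated counts may share reads between them. All windows were also searched for the element of the metal-responsive factor, TGCACNC or TGCGCNC on either strand. *Mt1* had 3 of them within the window and *Mt2* had 4, numbers that 1.97% and 0.517% of all windows reach. Of the other windows, 1 of *Sgk1* and that of *Nr3c2* had 1 each, and 25.7% of all windows have at least 1. For the glucocorticoid response element *Mt1* matched 9 of 12 bases at best, as 14.5% of windows do or exceed, and *Mt2* matched 7. The window of *Mt2* is shown on the plus strand of GRCm39, with the 3 metal-responsive elements that lie before the start site in capitals.

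*Mt2*, chr8:94898996-94899245: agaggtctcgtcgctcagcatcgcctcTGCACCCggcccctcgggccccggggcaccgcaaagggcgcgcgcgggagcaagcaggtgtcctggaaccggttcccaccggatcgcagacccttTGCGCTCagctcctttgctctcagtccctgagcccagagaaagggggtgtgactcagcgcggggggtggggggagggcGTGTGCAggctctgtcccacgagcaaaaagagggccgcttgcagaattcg

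The receptor genes had small differences between the genotypes, and neither was called. *Nr3c1* (ENSMUSG00000024431) was at 99.3 and 124 CPM in WT WD and at 102 and 107 CPM in *Tas1r3*-/- WD, with WT WD replicate 2 the highest of the overlapping values. Its log2 fold change was -0.10 ± 0.15 (SE, edgeR adjusted p = 0.877), and 0.08 without WT WD replicate 2. *Nr3c2* (ENSMUSG00000031618, chromosome 8, 77625576 to 77971863) was at 29.8 and 27.8 CPM in WT WD and at 35.1 and 34.3 CPM in *Tas1r3*-/- WD. Although the groups were apart, the difference was 1.20-fold, or 0.27 ± 0.14 (SE) as log2 fold change (n = 2 a group, edgeR adjusted p = 0.748), and 0.22 without WT WD replicate 2. The receptor genes also differed in the number of transcripts listed, 5 for *Nr3c1* and 1 for *Nr3c2*.

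Levels of different genes were compared as CPM per kb of the Ensembl canonical transcript, averaged over the 4 libraries. *Mt1* was the highest at 332 CPM per kb, followed by *Mt2* at 217, *Tsc22d3* at 50.8, *Sgk1* at 49.2, *Nr3c1* at 16.7, *Fkbp5* at 14.3, *Cdkn1a* at 10.1, *Nr3c2* at 5.26, *Zbtb16* at 4.21 and *Pdk4* at 2.80 CPM per kb. Only *Mt1* and *Mt2*, and *Mt2* and *Tsc22d3*, were neighbours in this order whose libraries did not overlap. *Nr3c1*, at 15.3 to 19.2 CPM per kb, lay above *Nr3c2*, at 5.82 CPM per kb or less, in every library. The order is pooled over the genotypes and differed between them. *Cdkn1a* was below *Nr3c2* in WT WD, at 4.28 and 3.25 against 4.94 and 4.605 CPM per kb, and above it in *Tas1r3*-/- WD, at 14.9 and 17.8 against 5.82 and 5.68 CPM per kb. *Sgk1* was below *Tsc22d3* in WT WD, at 9.92 and 43.4 against 31.8 and 46.1 CPM per kb, and above it in *Tas1r3*-/- WD, at 65.4 and 78.2 against 60.8 and 64.4 CPM per kb. In WT WD *Zbtb16* was at 1.31 and 0.959 CPM per kb, below *Pdk4* at 1.46 and 2.23, whereas in *Tas1r3*-/- WD it was above *Pdk4*, at 9.52 and 5.06 against 2.90 and 4.61 CPM per kb.

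Which WT WD library was used as the reference changed the size of the fold changes. *Tsc22d3*, *Sgk1* and *Pdk4* were lowest in WT WD replicate 1, and *Zbtb16*, *Cdkn1a*, *Fkbp5* and *Nr3c2* were lowest in WT WD replicate 2. Without WT WD replicate 2, edgeR called 23 genes (0.156% of those tested), and *Sgk1* (adjusted p = 6.49e-05) and *Tsc22d3* (adjusted p = 0.00954, log2 fold change 0.98) were among them. Without WT WD replicate 1, edgeR called 2149 genes (14.5%), which then compares *Tas1r3*-/- WD with the library of the weak hypothalamic markers alone, and *Fkbp5* (adjusted p = 0.0154, log2 fold change 0.85) and *Sgk1* (adjusted p = 0.00321) were among them. In these fits the lone WT WD library was assumed to vary like the *Tas1r3*-/- WD libraries. Of the 8 genes, *Sgk1* alone was called in both of these fits, while it was not called with all 4 libraries, where the WT WD libraries differ by 4.38 times.

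**Figure D4:**
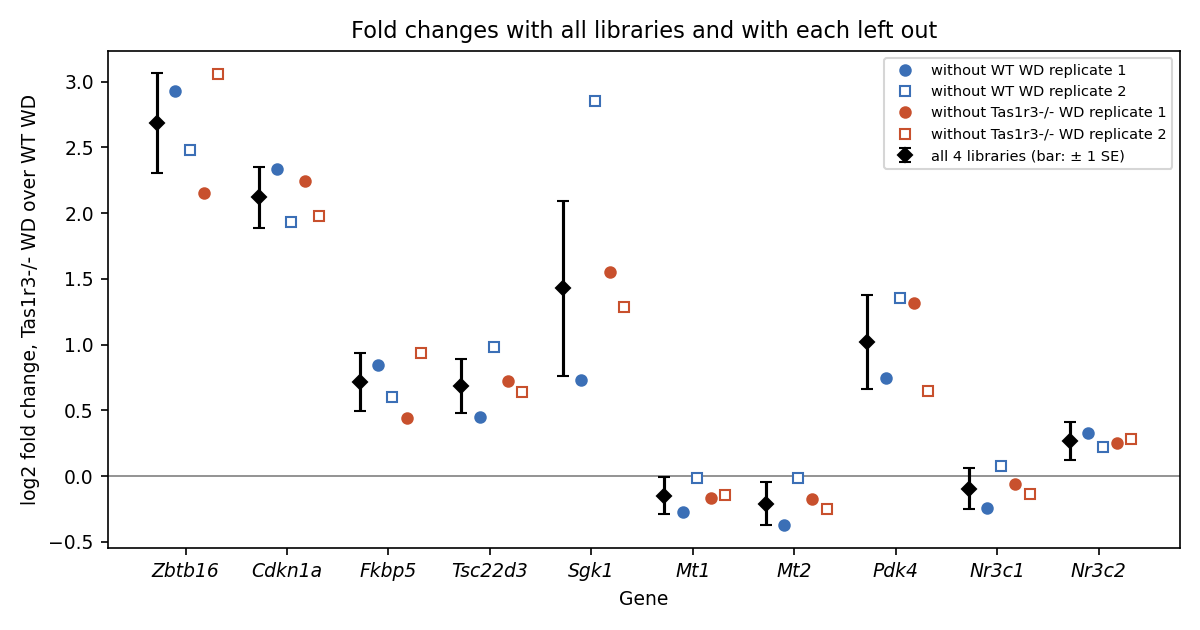
Log2 fold change (*Tas1r3*-/- WD over WT WD) of the 10 genes with all 4 libraries (black diamonds, bars of 1 standard error) and with each library left out (coloured symbols). *Sgk1* moves from 0.73 to 2.85, *Zbtb16* and *Cdkn1a* stay above 1.9, and *Nr3c1* crosses 0.

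Of 45 other genes known to be induced by glucocorticoids, 42 had enough counts to be tested, and 0 were called by edgeR or by DESeq2. This list was chosen with earlier results of these data known, so its counts are a description. The knockout libraries were both higher than either WT WD library for 21 genes (50%, against 20.6% of all genes) and both lower for 2, *Cebpb* and *Ehd3* (4.76%, against 19%). The median log2 fold change was 0.37, where that of all genes tested was -0.00567. At an unadjusted edgeR p under 0.05 there were 10 higher and 0 lower, where 5.48% of all genes passed in either direction. With WT WD replicate 2 left out, the median was 0.46, and 33 of the 42 were higher in both *Tas1r3*-/- WD libraries, against 37.6% of all genes. Without *Tas1r3*-/- WD replicate 1 they were 25 of 42, against 29.6% of all genes, with a median of 0.32. With WT WD replicate 1 left out the median was 0.24, and 23 were higher and 11 lower, against 41.7% and 40.6% of all genes.

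Among them, *Bcl6*, a transcriptional repressor, was at 28.3 and 23.2 CPM in WT WD and at 48.1 and 56.4 CPM in *Tas1r3*-/- WD, with a log2 fold change of 1.02. *Sult1a1*, a sulfotransferase, was at 4.29 and 5.10 CPM against 9.46 and 12.1 CPM. *Mfsd2a*, the lipid transporter of the blood-brain barrier, was at 24.9 and 25.3 CPM against 39.3 and 44.5 CPM. These genes were apart between genotypes by more than the spread of either group. *Arrdc2*, an arrestin domain protein, was at 11.8 and 16.8 CPM against 28.2 and 27.5 CPM. *Txnip*, which binds thioredoxin and limits glucose uptake, was at 26.4 and 40.8 CPM against 56.1 and 53.2 CPM. *Nedd9*, *Arl4d* and *Hif3a* had log2 fold changes of 0.72, 1.16 and 0.91. That of *Arl4d* was 0.72 without *Tas1r3*-/- WD replicate 2, that of *Hif3a* was 0.54 without *Tas1r3*-/- WD replicate 1, and that of *Txnip*, 0.70 with all libraries, was 0.43 without WT WD replicate 1. The most abundant gene, *Glul*, the glutamine synthetase of astrocytes, was at 981 and 922 CPM against 1150 and 1088 CPM. For all these genes the edgeR adjusted p was between 0.748 and 0.751. Several classic targets, named after their values were seen, did not have this pattern with all 4 libraries. The clock gene *Per1* was at 134 and 208 CPM in WT WD and at 166 and 174 CPM in *Tas1r3*-/- WD. *Klf9*, a Krüppel-like factor, was at 83.4 and 204 CPM against 148 and 123 CPM. *Dusp1*, a MAP kinase phosphatase, was at 17.3 and 44.6 CPM against 26.8 and 22.2 CPM. In these 3 genes WT WD replicate 1 was the lowest library and WT WD replicate 2 the highest, as for *Nr3c1*. Both *Tas1r3*-/- WD libraries were higher when WT WD replicate 2 was left out, as they were for 37.6% of all genes. The log2 fold changes of *Per1*, *Klf9* and *Dusp1* then went from -0.0073, -0.09 and -0.34 to 0.35, 0.70 and 0.50. Without WT WD replicate 1 they were -0.29, -0.59 and -0.85, so the direction depended on the WT WD library used.

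The receptor's chaperones and coregulators (26 genes, all tested) had a median log2 fold change of 0.09, with 11 higher and 5 lower in both *Tas1r3*-/- WD libraries (42.3% and 19.2%, against 20.6% and 19% of all genes). The median was 0.16 without WT WD replicate 2, with 16 higher and 7 lower (61.5% and 26.9%, against 37.6% and 37.5% of all genes). Without WT WD replicate 1 there were 13 higher and 9 lower (50% and 34.6%, against 41.7% and 40.6% of all genes). *Hsp90aa1*, *Hsp90ab1* and *Fkbp4*, which hold the receptor ready to bind hormone, had log2 fold changes of 0.0147, -0.00649 and 0.00499. They were 0.18, -0.0133 and 0.10 without WT WD replicate 2, and -0.126, 0.00654 and -0.0753 without WT WD replicate 1. The most abundant, *Hspa8*, was at 1770 and 1900 CPM in WT WD and at 2092 and 1996 CPM in *Tas1r3*-/- WD. The inducible heat shock genes were further apart. *Hspa1b* was at 13.4 and 5.76 CPM against 29.4 and 64.8 CPM, *Hspa1a* at 29.5 and 11.7 CPM against 52.1 and 70.7 CPM, and *Dnajb1* at 73.6 and 52.97 CPM against 111 and 124 CPM. *Hspa1a* and *Hspa1b* are nearly identical copies, so the division of reads between them is uncertain. For these 3 genes the edgeR adjusted p was 0.748. The log2 fold change of *Hspa1a* was 1.58, or 2.40 without WT WD replicate 1.

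Genes of steroid handling and the HPA axis (20 of 28 tested) changed with the WT WD library they were set against. *Avp*, which encodes vasopressin, was at 335 CPM in WT WD replicate 1, at 2.30 CPM in WT WD replicate 2, and at 197 and 203 CPM in *Tas1r3*-/- WD. *Crh*, the releasing hormone that starts the HPA response, was at 7.20, 0.658, 6.42 and 8.23 CPM in the same order, and *Hsd11b1*, which regenerates active hormone in the cell, was at 10.8, 15.8, 10.1 and 16.3 CPM. The log2 fold change of *Crh* was 0.90, or 0.0186 without WT WD replicate 2, and that of *Hsd11b1* was -0.0161, or 0.28 without it. The list's median log2 fold change of 0.51 was 2.04 when WT WD replicate 1 was left out and 0.0335 when replicate 2 was. Both *Tas1r3*-/- WD libraries were higher for 4 genes (20%, against 20.6% of all genes) and lower for 0 (0%, against 19%). Without WT WD replicate 2 they were higher for 5 and lower for 5 (25% each, against 37.6% and 37.5% of all genes). *Avp* had a log2 fold change of 0.24, or -0.75 without WT WD replicate 2. With all 4 libraries, that of *Avp* was 2.75 by limma-trend and 2.26 with a replicate block. *Pomc* was at 342 CPM in *Tas1r3*-/- WD replicate 1, the library with pituitary transcripts, and at 45.2 CPM in replicate 2.

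For the other regulators of these targets, p53 targets and inhibitors or partners of cyclin-dependent kinases (24 of 30 tested) had a median of 0.02, with 5 higher and 3 lower, against 20.6% and 19% of all genes here and in the lists that follow. *Phlda3*, the most abundant, was at 109 and 62.7 CPM in WT WD and at 90.5 and 130 CPM in *Tas1r3*-/- WD, a log2 fold change of 0.36, or 0.0136 without WT WD replicate 2. It was 0.0692 when *Tas1r3*-/- WD replicate 2 was left out. Metal-handling genes (14 of 14 tested) had a median of -0.0179, with 1 higher and 3 lower, and their most abundant gene, *Fth1*, had a log2 fold change of -0.15, or 0.047 without that library. The fasting-responsive genes and the relatives of *Pdk4* (25 of 26 tested) had a median of -0.11, with 3 higher and 5 lower. Without WT WD replicate 2 that median was 0.00351, with 11 higher and 9 lower, against 37.6% and 37.5% of all genes, so its direction rested on that library. *Foxo1*, a transcription factor of fasting, was at 28.1 and 26.5 CPM against 55.7 and 38.2 CPM, with a log2 fold change of 0.78, or 0.48 without *Tas1r3*-/- WD replicate 1, and *Pdha1* had a log2 fold change of -0.14, or 0.0995 without WT WD replicate 2. The relatives and substrates of *Sgk1* and the mineralocorticoid targets (16 of 19 tested) had a median of 0.04, with 2 higher and 3 lower, and *Atp1b1*, a subunit of the sodium pump, had a log2 fold change of -0.11, or 0.046 without WT WD replicate 2. The medians of the p53, metal and *Sgk1* lists without that library were 0.0895, 0.00803 and 0.0729. edgeR called 0 genes in each of these 4 lists and so did DESeq2.

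Core clock genes (22 of 22 tested), which share the daily rhythm of the hormone, had a median log2 fold change of -0.15, with 4 higher and 7 lower. *Dbp*, a clock output gene, was at 92.6 and 172 CPM in WT WD and at 48.3 and 54.4 CPM in *Tas1r3*-/- WD, a log2 fold change of -1.36 (edgeR adjusted p = 0.748), or -0.85 without WT WD replicate 2. *Tef*, the most abundant, was at 353 and 340 CPM against 366 and 332 CPM, a log2 fold change of 0.0107, or -0.0155 without that library. Without WT WD replicate 2 the list's median was 0.07, with 11 higher and 7 lower (50% and 31.8%, against 37.6% and 37.5% of all genes), so its direction rested on that library. The hour at which the mice were killed is not given in the sources used here.

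Immediate early genes (34 of 37 tested), which neuronal activity induces within minutes, had a median of 0.34, or 0.44 without WT WD replicate 2. Of these 17 were higher (50%, against 20.6% of all genes) and 5 lower (14.7%, against 19%). DESeq2 called 3, *Fosl2*, *Fosb* and *Egr3*, all higher in *Tas1r3*-/- WD, against 0.0652% of all genes, and edgeR called 0. *Fosl2* was at 13.2 and 8.22 CPM in WT WD and at 50.04 and 63.0 CPM in *Tas1r3*-/- WD, and *Fosb* at 5.66 and 4.11 CPM against 21.8 and 34.0 CPM. *Egr1*, *Homer1*, *Klf4* and *Csrnp1* had log2 fold changes between 0.81 and 0.86, *Atf3* of 1.83 and *Jund* of -0.17. *Nptx2*, a synaptic pentraxin, was at 65.0 and 169 CPM against 47.0 and 54.1 CPM, and its log2 fold change of -1.21 was -0.36 without WT WD replicate 2. No gene of this list is in the glucocorticoid list.

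**Figure D5:**
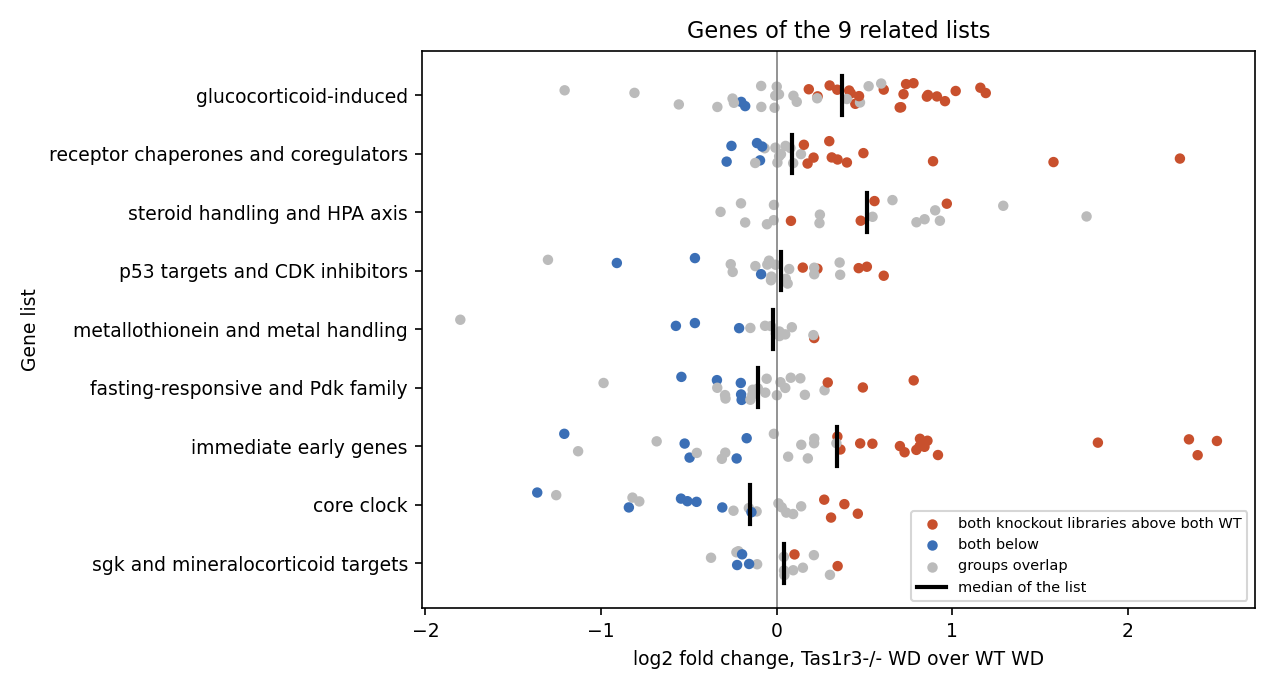
Log2 fold change (*Tas1r3*-/- WD over WT WD) of each gene tested in 9 lists, coloured by whether the libraries of the groups overlap, with black lines for the median of each list. The glucocorticoid-induced list (median 0.37) and the immediate early genes (median 0.34) have 21 of 42 and 17 of 34 genes with both *Tas1r3*-/- WD libraries higher.

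The genes nearest to *Zbtb16* in profile were found by the root mean square difference of log2 CPM, centred for each gene over the 4 libraries, among genes with a mean of at least 1 CPM. They were *Egr3* (difference 0.377), the lymphocyte receptor gene *Tnfrsf8* (0.385), the noncoding RNA *Mhrt* (0.414), *Fosl2* (0.455) and *Cdkn1a* (0.482). *Egr3* was at 3.26 and 2.63 CPM in WT WD and at 14.9 and 15.2 CPM in *Tas1r3*-/- WD, and *Tnfrsf8* at 1.03 and 1.48 CPM against 12.5 and 9.80 CPM. *Mhrt* had under 4 CPM in every library, and it overlaps another gene, so its reads are uncertain where the strand setting of the counting is not given. With 4 libraries, this likeness is a description only.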

How the data were processed

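RNA sequencing was analysed from 4 hypothalamus libraries, 2 of WT WD and 2 of *Tas1r3*-/- WD mice, grouped by their sample titles. Reads of the Ion Torrent platform were placed on mm39 by the authors (STAR, within Partek Flow), who deposited expected counts, that is, estimated counts of RefSeq transcripts without normalization, of which 13.6% are whole numbers (tolerance 1e-09). The 30930 transcripts were given gene names through their RefSeq accessions (names from the GRCm38.p6 annotation, no coordinates). The 44 transcripts without a match were left out, and 1 of them held 0.242% to 2.34% of a library's counts. Counts were summed per gene and rounded, since the design assumed whole gene counts. edgeR 4.0.16 in R 4.3.3 was used with TMM, filterByExpr, its quasi-likelihood test and Benjamini-Hochberg adjustment over all genes. Standard errors are the log2 fold change divided by the square root of F. Alternatives were DESeq2 1.42.0, limma-trend (limma 3.58.1), the earlier quasi-likelihood method, RLE factors, total counts, other filters, a replicate block, transcripts in place of genes, and each library left out. The shares of genes higher or lower beside each list are of all genes tested. The fit was tested on simulated data with known changes. At the common dispersion of these data, 64.5% of the changed genes were recovered, with 7 false calls. The simulation gave all genes the same dispersion and had no library short of hypothalamic markers, so it does not cover that case. Coordinates and canonical lengths are from GENCODE M39 on GRCm39. The limit given for a count of 0 covers counting error only, whereas the SE and SD include the spread between libraries.

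The 10 genes, the lists and the tests were chosen with earlier results of these data known. Lists were described by counts and medians, with no set test. List symbols absent from the RefSeq table were dropped, and genes of the 10 were kept out of the lists. From each list the text names the most abundant gene and genes with an unadjusted edgeR p under 0.05, at least 1.5-fold and groups that do not overlap, from marker lists the most abundant gene, and the 5 genes nearest to *Zbtb16*. Other names were added after their values were seen.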

Additional observations from a re-analysis of the deposited data

How the results depend on the processing

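With all 4 libraries included, the 10 genes kept their direction under every alternative, and DESeq2 alone moved the count of genes called, from 0 to 9. For transcripts, the direction was read from the most abundant transcript of each gene. The less abundant NM_001361211 of *Nr3c1* (log2 fold change 0.0732) and NM_001161845 of *Sgk1* (-0.0131) had the opposite sign to their gene. DESeq2 called 3 immediate early genes where edgeR called 0, and with RLE factors the knockout libraries were both higher for 1 gene of the *Sgk1* and mineralocorticoid list instead of 2. Leaving out 1 library at a time, edgeR called 0 to 2149 genes. The log2 fold change then ranged from 2.15 to 3.06 for *Zbtb16*, 0.44 to 0.94 for *Fkbp5*, 0.45 to 0.98 for *Tsc22d3*, 0.73 to 2.85 for *Sgk1*, 1.93 to 2.33 for *Cdkn1a*, 0.64 to 1.35 for *Pdk4*, 0.22 to 0.33 for *Nr3c2*, -0.27 to -0.0123 for *Mt1* and -0.37 to -0.0178 for *Mt2*. Among the 10 genes and those named by the rule, it turned in direction for *Nr3c1* (-0.24 to 0.076), *Avp* (-0.75 to 6.43), *Fth1* (-0.32 to 0.047), *Pdha1* (-0.33 to 0.0995), *Tef* (-0.0611 to 0.0723) and *Atp1b1* (-0.25 to 0.046), each time without WT WD replicate 2 and for *Tef* also without *Tas1r3*-/- WD replicate 1. Of genes named outside the rule, it also turned without WT WD replicate 2 for *Per1*, *Klf9*, *Dusp1* and *Hsd11b1*. Without *Tas1r3*-/- WD replicate 1 it turned for *Pomc* (1.77 to -0.34), *Hsd11b1* (-0.0161 to 0.29), *Per1* (-0.0073 to 0.0254) and *Hsp90ab1*. Without *Tas1r3*-/- WD replicate 2 it turned for *Klf9* (-0.09 to 0.035), *Hsp90aa1* and *Fkbp4*. Without WT WD replicate 1 it turned for *Hsp90aa1*, *Hsp90ab1* and *Fkbp4*. Genes higher in the knockout libraries then numbered 23 to 33 (glucocorticoid-induced), 13 to 16 (receptor chaperones), 5 to 15 (steroid handling), 8 to 12 (p53) and 3 (metal, in each case). They numbered 4 to 11 (fasting), 19 to 26 (immediate early), 4 to 11 (clock) and 4 to 7 (*Sgk1* list), against 29.6% to 41.7% of all genes. Genes lower numbered 3 to 11 (glucocorticoid-induced), 6 to 9 (receptor chaperones), 2 to 5 (steroid handling), 4 to 9 (p53) and 4 to 8 (metal). For the fasting, immediate early, clock and *Sgk1* lists they numbered 6 to 13, 5 to 12, 7 to 15 and 3 to 8, against 30.03% to 40.6% of all genes. Such counts can only stay or grow when a library is left out, because fewer libraries must be apart. Other causes of their growth were not tested. Groups share replicate numbers, but the deviations of same-numbered libraries correlated at 0.082 over genes, and 2 pairs cannot show a pairing. With a replicate block, 0 genes were called, and the log2 fold change of *Sgk1* was 1.76. The block changed no call of the 10 genes. With 2 libraries a group and 1 of them short of hypothalamic markers, a gene that was not called is not shown to be equal in the genotypes.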
